A study of Mus musculus with 3 samples.

Results

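Integrin and laminin chains were followed in the RNA of brain vessels isolated from whole mouse brains. The chains were taken by gene symbol alone, as every gene named Itga followed by letters or digits, Itgb plus a single digit, or Lama, Lamb or Lamc plus a single digit. The rule found 37 of the 29917 genes with a name, of which 26 were integrin chains (18 α and 8 β) and 11 were laminin chains (5 α, 3 β and 3 γ). The rule itself uses no measured value. There were 3 libraries, with 1 per group, and each was made from the pooled vessels of 3 male mice aged 3 months. The first group was C57BL6 WT, the second was C57BL6-BALB/c WT, and the third was Cx30-/-, in which the gap junction protein Connexin 30 of astrocyte endfeet is deleted in every cell of the body. The sample labels place the Cx30-/- library on the C57BL6 background, while the study's methods place it on the mixed C57BL6/Balbc background, so it was compared with each WT library in turn and the matching background remained unresolved. Because a group was 1 pool, no difference between groups could be set against the variation between mice or preparations.

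Integrins are membrane receptors made of an α and a β chain, which bind the extracellular matrix or other cells outside and the actin cytoskeleton inside. Laminins are secreted trimers of an α, a β and a γ chain that polymerize into the sheet of the basement membrane. In brain vessels an endothelial basement membrane rich in the α4 and α5 chains lies against a parenchymal membrane rich in α1 and α2, to which the astrocyte endfeet attach. The α3, α6 and α7 integrins, paired with β1, and α6 paired with β4, are the main laminin receptors.

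The chains with the highest level per kb in each family, Itgb1 and Lamb2, are introduced by the DNA just upstream of their RefSeq start, to place both genes in the genome. Both stretches are 250 bases long and come from RefSeq on GRCm38.p6, in the direction of transcription, with Itgb1 at chr8:128685404-128685653 (+ strand) and Lamb2 at chr9:108479612-108479861 (+ strand). GENCODE M21, the annotation used for gene positions, starts Lamb2 at 108479736, so part of its window lies inside the gene as annotated there. Capitals mark the letters GGGCGG, the core of a GC box, and no other motif.
Itgb1: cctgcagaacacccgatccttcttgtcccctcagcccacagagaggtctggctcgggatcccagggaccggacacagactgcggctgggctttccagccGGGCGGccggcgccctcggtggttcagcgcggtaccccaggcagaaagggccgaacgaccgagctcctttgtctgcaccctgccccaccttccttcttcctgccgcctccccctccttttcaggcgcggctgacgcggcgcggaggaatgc
Lamb2: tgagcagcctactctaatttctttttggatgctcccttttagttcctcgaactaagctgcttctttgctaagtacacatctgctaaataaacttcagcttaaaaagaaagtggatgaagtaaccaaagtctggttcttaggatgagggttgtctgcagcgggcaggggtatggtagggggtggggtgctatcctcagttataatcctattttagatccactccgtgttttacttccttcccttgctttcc
The Itgb1 window was 68.0% G and C and held 1 match to GGGCGG on either strand, whereas the Lamb2 window was 43.6% G and C and held none. Neither held TATAAA or CCAAT. RefSeq promoters were found for 23 of the 37 chains, in 26 windows of the same length, and GGGCGG stood in 9 of the 26, against 32.7% of all 32851 windows. CCAAT stood in 4 of the 26 against 33.8% of all windows, and TATAAA in 0 of the 26 against 12.4%. The median G and C content of the chains' windows was 58.0%, against 52.4% over all windows. These matches only describe the letters in the windows.

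The deposited counts summed to between 50375426 and 60725557 per library over all transcripts, with a shared exon counted for each transcript. The 1 transcript row used per gene summed to between 20143253 and 24164505. Median-of-ratios scaling turned the counts of these rows into normalized counts. Levels of different genes were compared as normalized counts per kb of transcript. The deleted gene itself, Gjb6, reached 2531 normalized counts in C57BL6 WT, 2426 in C57BL6-BALB/c WT and 101 in Cx30-/-. Markers of vessel cells were abundant in each library, with 10 of 10 endothelial, 6 of 6 pericyte and 6 of 6 smooth muscle markers at 50 normalized counts or more. Markers of attached tissue were also present, with 7 of 7 astrocyte, 6 of 6 neuron, 6 of 6 oligodendrocyte and 6 of 6 choroid plexus markers at that level.

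Of the 37 chains, 32 reached 50 normalized counts in at least 1 library. The plot of levels by library shows that Itgb1 was the most abundant integrin chain and Lamb2 the most abundant laminin chain in all 3 libraries. Ratios between libraries are given on the log2 scale with the 95% exact binomial interval of the 2 raw counts, which covers the sampling of reads only. Where 3 values are listed without library names, they follow the order C57BL6 WT, C57BL6-BALB/c WT and Cx30-/-, and 2 ratios of Cx30-/- are given against C57BL6 WT first and C57BL6-BALB/c WT second. In whole vessels, fewer cells of a type and less RNA per cell cannot be told apart.

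**Figure D1:**
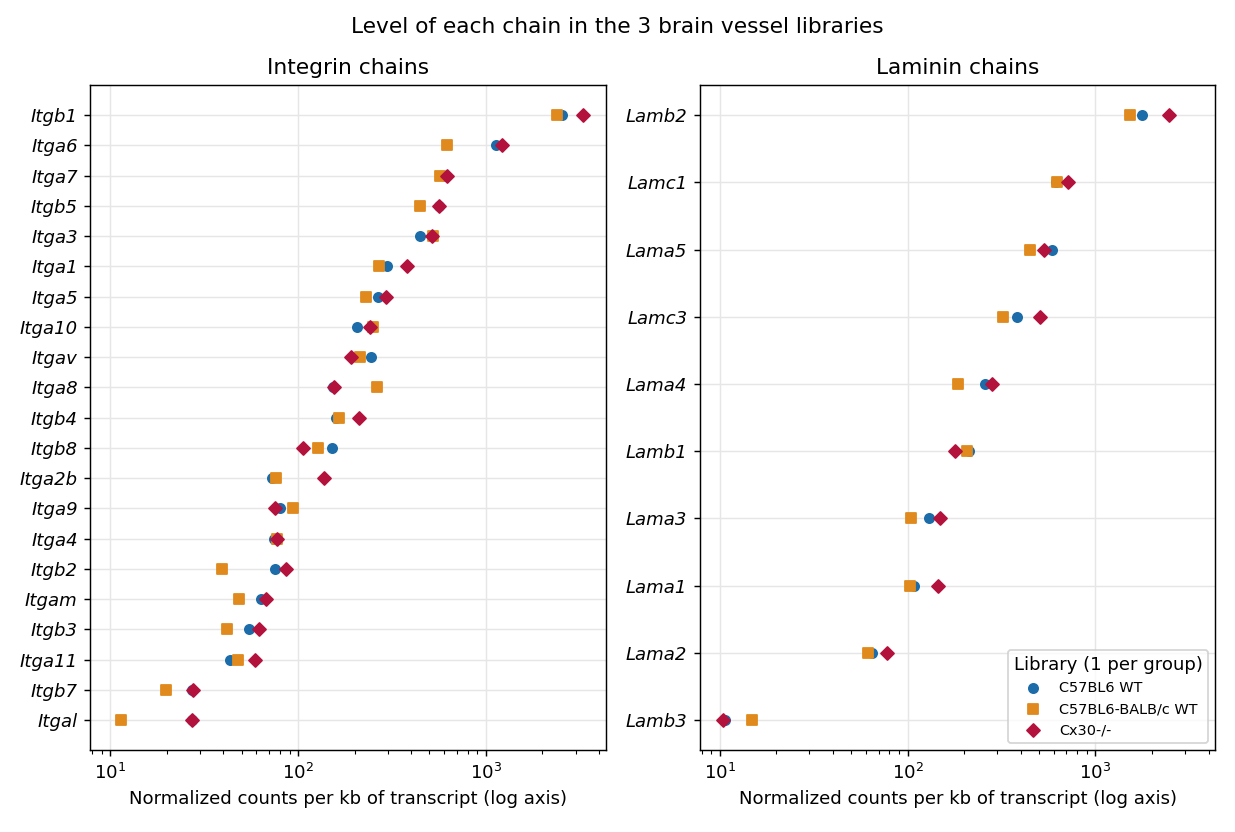
Normalized counts per kb of transcript (log axis) of 21 integrin and 10 laminin chains with at least 50 normalized counts in a library. Each point is 1 library, Itga6 is drawn from a row without a coding sequence, and Itgb1 and Lamb2 lie farthest to the right in each of the 3 libraries.

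No chain was 2-fold from both WT libraries in Cx30-/-, out of 31 that could be compared with both, while 1.42% of all genes were. Against C57BL6 WT, 25 of 31 chains were higher and 6 lower in Cx30-/-, where 7283 of 14776 genes were higher and 7493 lower. Of these chains 0 reached 2-fold, against 2.68% of all genes. The log2 ratios ran from -0.51 (Itgb8) to 0.92 (Itga2b), with a median of 0.14, where the median of all genes was -0.0046. The interval of the ratio lay above 0 for 16 chains and below 0 for 5. Of all genes, 3794 had it above 0 and 4186 below, and 54.0% had an interval that left out 0 on either side. Laminin chains had a median of 0.20 over 10 chains and integrin chains of 0.12 over 21.

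Against C57BL6-BALB/c WT, 23 of 32 chains were higher and 9 lower in Cx30-/-, where 7484 of 14891 genes were higher and 7407 lower. The log2 ratios of the chains ran from -0.77 (Itga8) to 1.25 (Itgal), with a median of 0.36, where the median of all genes was 0.0040. Here 2 chains, Itgal and Itgb2, were at least 2-fold higher, which compares with 8.69% of all genes past 2-fold in either direction. The interval lay above 0 for 22 chains and below 0 for 5. Of all genes, 5306 had it above 0 and 5385 below, and 71.8% had an interval leaving out 0. The medians were 0.49 for laminin and 0.35 for integrin chains. Both comparisons use the same Cx30-/- library, so neither is a repeat of the other. Counted by position, Cx30-/- was the highest of the 3 libraries for 21 of 32 chains, where 36.4% of all genes had it highest, and the lowest for 5, where 36.9% of all genes had it lowest.

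The WT libraries differed from each other as well. Relative to C57BL6 WT, 22 of 32 chains were lower and 10 higher in C57BL6-BALB/c WT, where 7392 of 14791 genes were lower and 7399 higher. The median log2 ratio of the chains was -0.16, where that of all genes was 0.0004. Itgal was among 2 chains at least 2-fold lower in C57BL6-BALB/c WT, against 3.43% of all genes past 2-fold in either direction. The interval lay below 0 for 17 chains and above 0 for 4. Of all genes, 4616 had it below 0 and 4908 above, and 64.4% had an interval leaving out 0. The typical size of a chain's log2 ratio, as a median without its sign, was 0.22 for Cx30-/- against C57BL6 WT, 0.46 for Cx30-/- against C57BL6-BALB/c WT and 0.24 between the WT libraries. All genes had the same order, with median sizes of 0.19, 0.36 and 0.26. The plot of ratios with their intervals shows most chains to the right of 0 in both panels and none of them past 2-fold in the left one.

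**Figure D2:**
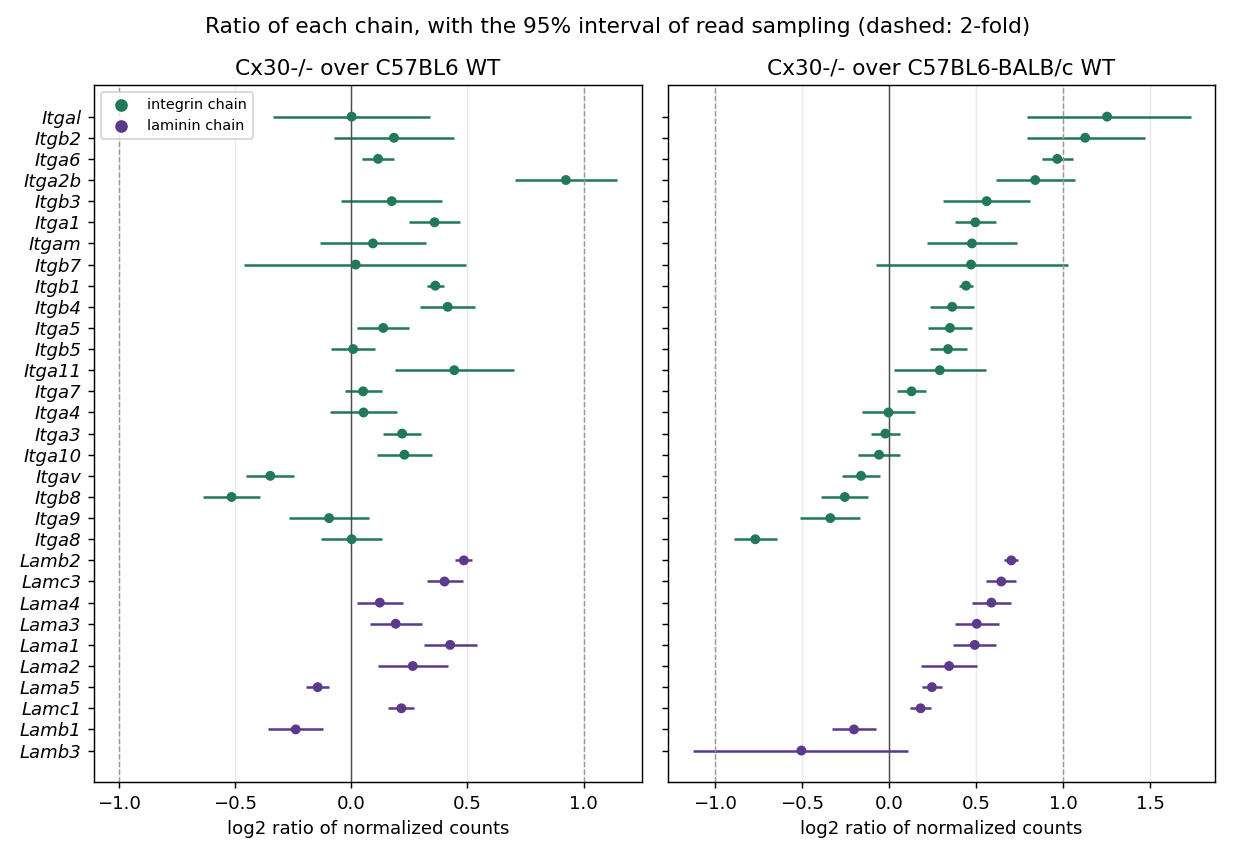
Log2 ratio of normalized counts, Cx30-/- over C57BL6 WT (left, 30 chains) and over C57BL6-BALB/c WT (right, 31 chains), with 95% exact binomial intervals that cover read sampling only. Dashed lines mark 2-fold, and Itgal and Itgb2 lie past the right one in the right panel.

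For a test across genes, the edgeR quasi-likelihood test set Cx30-/- against the WT libraries pooled as 1 group. Of all genes, 0.0512% had an adjusted p under 0.05. Of the 36 chains tested, 0 did, with adjusted p between 0.35 and 0.99, and 1 had an unadjusted p under 0.05, as had 8.69% of all genes tested. DESeq2 gave 0 of the 31 chains with an adjusted p, and 1 of 37 by unadjusted p, against 3.77% of all genes. In both tools this chain was Itga2b (edgeR unadjusted p = 0.0081, adjusted p = 0.35). The test had 1 residual degree of freedom, the difference between the WT libraries, background included.

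Among the laminin α chains, Lama5 and Lama4, which the endothelium secretes, had the highest levels per kb. Lama5 reached 6690 normalized counts in C57BL6 WT, 5097 in C57BL6-BALB/c WT and 6053 in Cx30-/-, which placed Cx30-/- between the WT libraries. Lama4 had 1540, 1115 and 1677 normalized counts, listed likewise, with Cx30-/- 0.12 (interval 0.02 to 0.22) above C57BL6 WT and 0.59 (0.48 to 0.70) above C57BL6-BALB/c WT on the log2 scale. Both endothelial chains were thus lowest in C57BL6-BALB/c WT, as were the 10 endothelial markers, whose summed normalized counts were 117566, 68824 and 142845 and whose median log2 ratios were 0.22, 0.86 and, between the WT libraries, -0.67. Against C57BL6 WT, however, all 10 markers were higher in Cx30-/-, where Lama5 was lower, at a log2 ratio of -0.14 (interval -0.19 to -0.09). Other lists were also lower in C57BL6-BALB/c WT than in C57BL6 WT. They were 5 of 6 pericyte (median -0.63), 6 of 6 fibroblast (-0.28) and 6 of 6 choroid plexus markers (-1.30). So were 5 of 6 microglia and macrophage (-0.42) and 5 of 6 oligodendrocyte markers (-0.33). Of the platelet and the neutrophil markers compared, 3 of 4 in each list were lower (-0.69 and -0.68). All 6 smooth muscle markers were higher there (0.68), as were 4 of 6 neuron (0.33) and 4 of 7 astrocyte markers (0.04). The part of endothelial or other cell content in the ratios of Lama5 and Lama4 was not tested.

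The parenchymal chains Lama1 and Lama2 were both highest in Cx30-/-. Lama1 had 1030, 982 and 1383 normalized counts in C57BL6 WT, C57BL6-BALB/c WT and Cx30-/-, with log2 ratios of Cx30-/- of 0.43 (interval 0.31 to 0.54) and 0.49 (0.37 to 0.62). Lama2, the chain missing in a congenital muscular dystrophy, had 629, 594 and 755 normalized counts, with log2 ratios of 0.26 (0.11 to 0.42) and 0.35 (0.18 to 0.51). For both chains the WT libraries lay close together, with an interval between them that spanned 0. Fibroblast markers, 6 of 6 at 50 normalized counts or more, summed to 10650, 9098 and 12603 with median log2 ratios of Cx30-/- of 0.24 and 0.45. Astrocyte markers went the other way, with medians of -0.22 and -0.17 and 4 of 7 lowest in Cx30-/-. The part of either list in the ratios of Lama1 and Lama2 was not tested. Lama3, a chain of epithelial laminins, had 1179, 948 and 1346 normalized counts.

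Lamb2 (ENSMUSG00000052911; GENCODE M21 on GRCm38, chr9:108479736-108490530, + strand) reached 9794 normalized counts in C57BL6 WT, 8413 in C57BL6-BALB/c WT and 13702 in Cx30-/-. Its log2 ratios of Cx30-/- were 0.48 (interval 0.45 to 0.52) and 0.70 (0.66 to 0.74), the highest of the 11 laminin chains in both comparisons. Lamb1, the alternative β chain, went the other way, with 1224, 1191 and 1038 normalized counts, and its log2 ratios were -0.24 (-0.36 to -0.12) and -0.20 (-0.32 to -0.07). Lamb2 made up 88.8%, 87.3% and 92.9% of the summed β level per kb in C57BL6 WT, C57BL6-BALB/c WT and Cx30-/-, and Lamb1 10.6%, 11.9% and 6.7%. Lamb3, the β chain of skin-type laminin, was scarce, at 42.8, 59.4 and 42.0 normalized counts.

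Lamc1, the γ chain of most laminins, varied little, with 4671, 4777 and 5424 normalized counts, and its Cx30-/- ratios (log2) were 0.22 (interval 0.16 to 0.27) and 0.18 (0.12 to 0.24). Lamc3 had a larger difference, with 2249, 1898 and 2970 normalized counts, and its log2 ratios were 0.40 (0.32 to 0.48) and 0.65 (0.56 to 0.73). Of the summed γ level per kb, Lamc1 held 57.6%, 63.8% and 56.1% and Lamc3 36.0%, 32.9% and 39.9%. The stacked plot of laminin chains shows a β sum well above the α and γ bars in each library, at 1990.4, 1739.6 and 2663 normalized counts per kb.

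**Figure D3:**
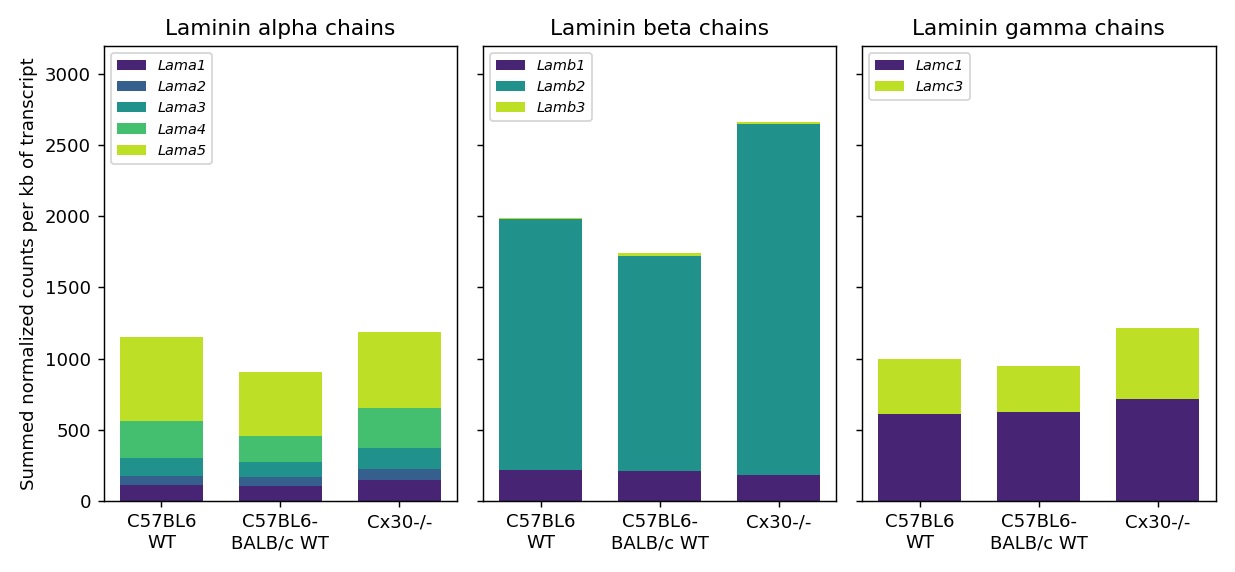
Summed normalized counts per kb of transcript of laminin α, β and γ chains (for γ, Lamc1 and Lamc3) in the 3 libraries (1 per group, no error bars), stacked by chain. Lamb2 fills most of the β bar in every library, and the β bar is highest in Cx30-/-.

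Among the laminin-binding integrins, Itga6 (ENSMUSG00000027111; chr2:71745616-71858416, + strand) reached 3061 normalized counts in C57BL6 WT, 1696 in C57BL6-BALB/c WT and 3316 in Cx30-/-. The Cx30-/- library was thus close to C57BL6 WT, at a log2 ratio of 0.12 (interval 0.05 to 0.19), and 0.97 (0.88 to 1.06) above C57BL6-BALB/c WT, just short of 2-fold. The row used for Itga6 was a transcript annotated without a coding sequence, and the longest coding row gave 2051, 1263 and 2251 normalized counts, with log2 ratios of 0.13 and 0.83. Per kb, the row used gave 1125, 623 and 1219 normalized counts, the highest of all α chains in each library, while the coding row gave 476, 293 and 522, below the 603, 570.07 and 624 of Itga7. Endothelial markers, given above with Lama4 and with other lists lower there, were lowest in the same library, by a median of -0.67, and their part in Itga6 was not tested. Itga3 and Itga7 varied less, with 2153, 2540.4 and 2506 normalized counts for Itga3 and 2418, 2288 and 2505 for Itga7. The share of Itga6 in the summed level per kb of all α chains was 30.3% in C57BL6 WT, 18.8% in C57BL6-BALB/c WT and 29.9% in Cx30-/- with the row used, and 15.5%, 9.8% and 15.5% with the coding row.

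Of the collagen-binding α chains, Itga1 had 1183, 1075 and 1517 normalized counts, with log2 ratios of Cx30-/- of 0.36 (interval 0.25 to 0.47) and 0.50 (0.38 to 0.62). Itga11, typical of fibroblasts, had 212, 235.5 and 288.5 normalized counts, also highest in Cx30-/-. Itga10 had 1034, 1259 and 1212 normalized counts, with Cx30-/- between the WT libraries, but 34.5% of its exon bases are shared with an overlapping gene model on the same strand, so its counts are uncertain.

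The chains that bind the RGD motif of fibronectin and other ligands differed among themselves. Itga5, the fibronectin receptor chain, had 1170.1, 1009 and 1287 normalized counts. Itga8 (ENSMUSG00000026768; chr2:12106632-12301922, - strand) had 897, 1527 and 898 normalized counts, equal in C57BL6 WT and Cx30-/- to within the interval of -0.13 to 0.13, and lower in Cx30-/- than in C57BL6-BALB/c WT by a log2 ratio of -0.77 (-0.89 to -0.64), the lowest ratio of any chain there. Across the 4 of its rows with at least 50 normalized counts in a library, the ratio to C57BL6 WT ran from 0.0019 to 1.04. The ratio to C57BL6-BALB/c WT ran from -0.77 to -0.53. Itga8 is known from smooth muscle, and the 6 smooth muscle markers, all at 50 normalized counts or more, summed to 32875, 50325 and 43869, with all 6 higher in C57BL6-BALB/c WT than in C57BL6 WT by a median of 0.68 and all 6 lower in Cx30-/- than in C57BL6-BALB/c WT, by a median of -0.27. Against C57BL6 WT, however, all 6 markers were higher in Cx30-/-, by a median of 0.32, where Itga8 had a log2 ratio of 0.0019. Their part in Itga8 was not tested. Itgav, which pairs with several β chains, had 1726, 1513 and 1355 normalized counts and was lowest in Cx30-/-, with log2 ratios of -0.35 (-0.45 to -0.25) and -0.16 (-0.27 to -0.05). A short coding row of Itgav, at 313, 221 and 265 normalized counts, had ratios of -0.24 and 0.26 instead.

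Itga4 and Itga9, which bind fibronectin, tenascin and vascular adhesion molecules, showed small differences. Itga4 had 729, 757 and 756 normalized counts, and both intervals of its Cx30-/- ratios spanned 0, although 11.5% of its exon bases overlap an antisense gene that unstranded reads cannot separate. Itga9 had 561.5, 663 and 526 normalized counts, with log2 ratios of Cx30-/- of -0.10 (interval -0.27 to 0.08) and -0.34 (-0.51 to -0.16). Smaller overlaps, of 5.6% to 8.9% of exon bases, lie under Itga1, Itga8, Itgb4 and Lamc3.

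Among the 32 chains, the largest ratio to C57BL6 WT belonged to Itga2b (ENSMUSG00000034664; chr11:102453297-102470122, - strand), the αIIb chain of the fibrinogen receptor of platelets. It reached 249 normalized counts in C57BL6 WT, 263.5 in C57BL6-BALB/c WT and 472 in Cx30-/-. The WT libraries were close together and Cx30-/- stood above both, by log2 ratios of 0.92 (interval 0.71 to 1.14) and 0.84 (0.61 to 1.07), both intervals reaching past 2-fold. Across the 7 of its transcript rows with at least 50 normalized counts in a library, the ratio to C57BL6 WT ran from 0.69 to 0.92 and the ratio to C57BL6-BALB/c WT from 0.39 to 0.88. Its partner Itgb3 had 315, 241 and 356 normalized counts, with log2 ratios of 0.17 (-0.04 to 0.39) and 0.56 (0.31 to 0.81). Platelet markers, of which 5 of 6 reached 50 normalized counts, summed to 428, 262.5 and 695.5, and all 5 were higher in Cx30-/- than in each WT library, by medians of 0.67 and 1.28. Between the WT libraries, however, 3 of the 4 platelet markers compared were lower in C57BL6-BALB/c WT, by a median of -0.69. Itga2b had a log2 ratio of 0.08 there (interval -0.17 to 0.33). The part of platelets in Itga2b was not tested. No platelet marker was at 0 in all libraries.

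The leukocyte integrins included both chains that were at least 2-fold higher than in C57BL6-BALB/c WT. Itgal (ENSMUSG00000030830; chr7:127296260-127335138, + strand), the αL chain of LFA-1, reached 141.5 normalized counts in C57BL6 WT, 59.4 in C57BL6-BALB/c WT and 142 in Cx30-/-. Itgb2 (ENSMUSG00000000290; chr10:77530252-77565708, + strand), the β2 chain shared by the leukocyte integrins, had 224, 117 and 255 normalized counts. In both genes C57BL6-BALB/c WT stood apart and the other libraries lay close together, since the log2 ratios of Cx30-/- to C57BL6-BALB/c WT were 1.25 (interval 0.79 to 1.73) for Itgal and 1.13 (0.80 to 1.47) for Itgb2, while both intervals against C57BL6 WT spanned 0. Itgam, the αM chain of macrophages and neutrophils, had 296, 227 and 316 normalized counts, but 73.7% of its exon bases are shared with another gene model on the same strand.

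Markers of immune cells did not share 1 order. The 6 microglia and macrophage markers, all at 50 normalized counts or more, summed to 4702, 3316 and 4291, with medians of -0.17 and 0.10 for Cx30-/- against C57BL6 WT and C57BL6-BALB/c WT. Neutrophil markers, 7 of 7 at that level in some library, summed to 534, 526 and 1612, with medians of 1.60 and 2.13. Of 6 lymphocyte markers 5 were found and 0 reached 50 normalized counts, with sums of 50.6, 56.2 and 78.7. No marker of these lists was at 0 in all libraries, and their part in the leukocyte integrins was not tested. The plot of chains beside markers shows these orders for 4 groups of chains.

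**Figure D4:**
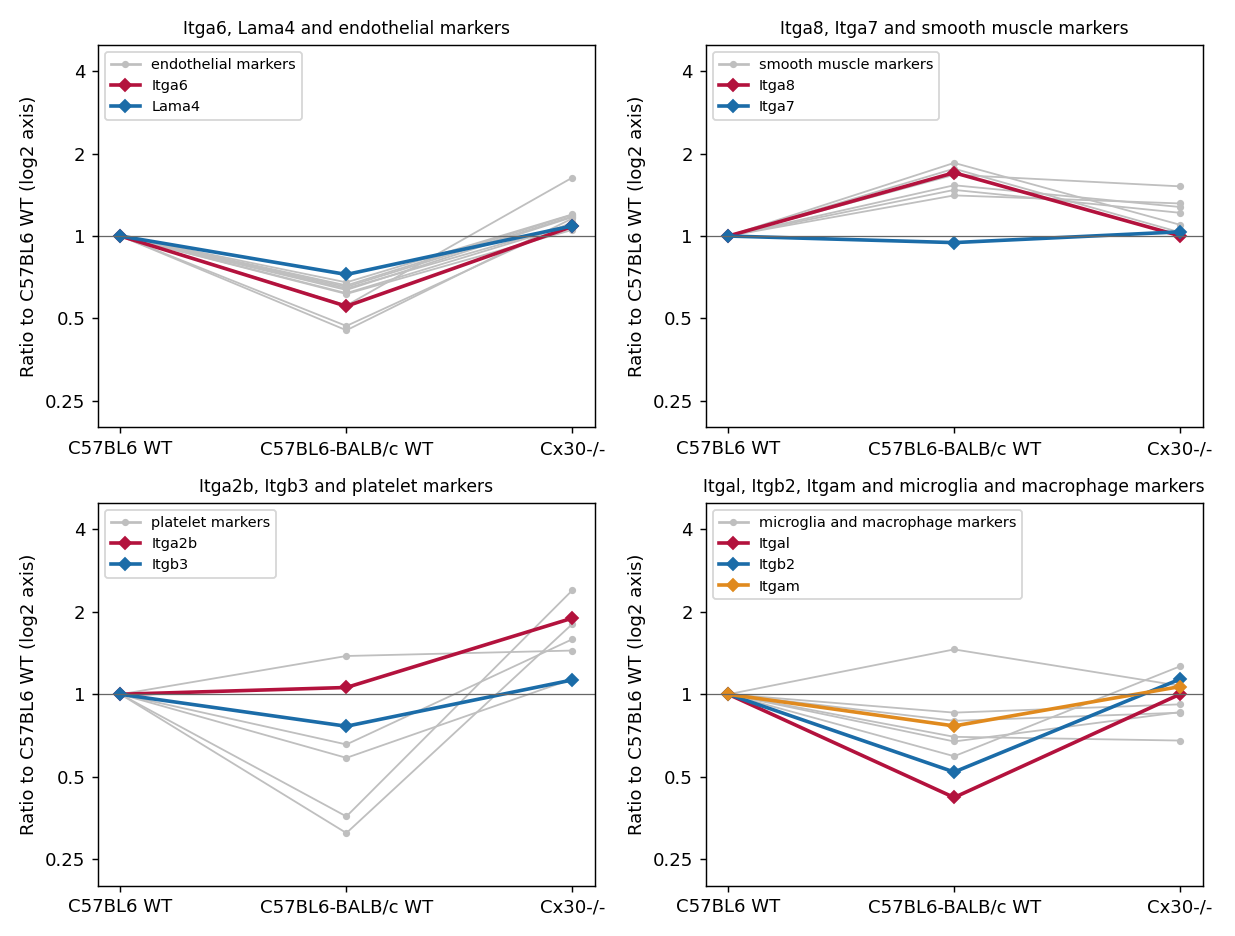
Normalized counts of 9 chains (coloured) and of cell type markers with at least 50 normalized counts in a library (grey), each divided by its own value in C57BL6 WT (log2 axis), across the 3 libraries. Itga6 and Lama4 dip in C57BL6-BALB/c WT with the endothelial markers, Itga8 peaks there with the smooth muscle markers, and Itga2b is highest in Cx30-/- with the platelet markers. In C57BL6-BALB/c WT, where most platelet markers are lower than in C57BL6 WT, Itga2b has a log2 ratio of 0.08. Itga7, drawn with the smooth muscle markers, is lowest in C57BL6-BALB/c WT, where all 6 of these markers are higher than in C57BL6 WT.

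Itgb1 (ENSMUSG00000025809; chr8:128685654-128733200, + strand), the β chain of most matrix receptors, reached 9705 normalized counts in C57BL6 WT, 9169 in C57BL6-BALB/c WT and 12470.1 in Cx30-/-. The WT libraries lay close together, and Cx30-/- was higher by log2 ratios of 0.36 (interval 0.32 to 0.40) and 0.44 (0.40 to 0.48). Per kb, Itgb1 made up 71.1%, 74.1% and 75.5% of the summed β level, and the 11 α chains that pair alone or mainly with β1 summed to 3295, 2951.5 and 3641 normalized counts per kb against 2544, 2403 and 3269 for Itgb1. With the coding row of Itga6 the partners summed to 2646, 2621 and 2945 instead, so that the level of Itgb1 was below the sum of its partners in both WT libraries with either row, and below or above it in Cx30-/- depending on the row.

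The other β chains went in both directions. Itgb4, the partner of α6 in hemidesmosomes, had 955, 989 and 1273.5 normalized counts, with log2 ratios of Cx30-/- of 0.41 (interval 0.30 to 0.53) and 0.36 (0.24 to 0.49). Itgb5 had 1738, 1380.4 and 1748 normalized counts, equal in C57BL6 WT and Cx30-/- within an interval of -0.09 to 0.10. Itgb7, which pairs with α4 and αE on lymphocytes, had 72.5, 52.9 and 73.4 normalized counts. Itgb8 (ENSMUSG00000025321; chr12:119158022-119238802, - strand), which with αv activates TGF-β in the neural tissue around vessels, had 1280.1, 1067 and 896 normalized counts and was lowest in Cx30-/-, by log2 ratios of -0.51 (-0.64 to -0.39) and -0.25 (-0.39 to -0.12). Its retained-intron row, at 66.4, 60.5 and 71.3 normalized counts, had ratios of 0.10 and 0.24 instead.

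Of the chains with at least 50 normalized counts in a library, Itgb8, Itgav, Lamb1, Itga9 and Lamb3 were lowest in Cx30-/-. In that library the summed markers of attached neural tissue were also lowest. Astrocyte markers summed to 40766, 40943 and 33527, with medians of -0.22 and -0.17 for Cx30-/- and 4 of 7 lowest there, and neuron markers to 32884, 42687 and 22903, with medians of -0.54 and -0.84 and all 6 lowest in Cx30-/-. Oligodendrocyte markers summed to 51049.7, 45565 and 40515, with medians of -0.46 and -0.51 and 4 of 6 lowest in Cx30-/-. The part of neural tissue in the values of these 5 chains was not tested. Choroid plexus markers summed to 146366, 56917 and 76974, with medians of -0.65 and 0.46.

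The other 5 chains stayed below 50 normalized counts in every library and are given as raw counts. Itgax had 34, 24 and 24 raw counts in C57BL6 WT, C57BL6-BALB/c WT and Cx30-/-, and Itgae had 16, 7 and 12. Itga2, a collagen receptor of platelets and epithelia, had 15, 13 and 9 raw counts. Itgb6, an epithelial chain, had 7, 2 and 13, and Itgad had 1, 2 and 5.

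The partners of these receptors were counted from lists of basement membrane and cytoplasmic genes, the second including the membrane protein Cd151. Of 14 basement membrane partners, all measured, 13 were higher in Cx30-/- than in C57BL6 WT and 12 were higher than in C57BL6-BALB/c WT, with median log2 ratios of 0.14 and 0.38, and 0 reached 2-fold in either comparison. Of all genes, 7283 of 14776 and 7484 of 14891 were higher in these comparisons. Those past 2-fold in either direction were 2.68% and 8.69% of all genes. The highest levels per kb belonged to Sparc, a collagen-binding matrix protein, with 20961.5, 15201.5 and 22589 normalized counts, and Vtn, the αv ligand vitronectin, with 17671, 10303 and 16082. Of 21 cytoplasmic partners 19 were found and 18 reached 50 normalized counts, of which 15 were higher than in C57BL6 WT and 13 were higher than in C57BL6-BALB/c WT, with medians of 0.21 and 0.24. Only Parvg, a parvin of blood cells, was at least 2-fold from a WT library in this list, with 83.0, 181.5 and 239 normalized counts. The shares of all genes given for the basement membrane list apply here too. Its log2 ratio was 1.53 against C57BL6 WT and 0.40 against C57BL6-BALB/c WT. In the cytoplasmic list the highest levels per kb belonged to Flna and Cd151. Flna, the actin crosslinker filamin A, had 19301, 30019.6 and 25415 normalized counts. Cd151, a membrane tetraspanin bound to laminin receptors, had 3286, 2603 and 3805. Pericyte markers summed to 47073, 30462.5 and 53114.5 normalized counts, with median log2 ratios of Cx30-/- of 0.10 and 0.60.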

How the data were processed

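Polyadenylated RNA of isolated brain vessels was sequenced as 50-base single reads from strand non-specific libraries. The authors trimmed and filtered the reads with Eoulsan 1.1.6, aligned them with Bowtie 0.12.7 (mm10) and removed reads matching more than once. They deposited, per Ensembl transcript, a raw count of the alignments on its exons, so that a shared exon counts for each transcript, and the same value as a fraction of a library total (20654144 to 24830975). CASAVA 1.8.2 is named in the submitters' processing notes. The genome build behind the deposited positions is not known, so coordinates were taken from GENCODE M21 on GRCm38 through the transcript identifiers, which named 69375 of 82813 rows (83.8%). Rows without a name were left out.

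Each gene took its row with the largest total count. Normalized counts are counts over median-of-ratios size factors (1.15 for C57BL6 WT, 0.926 for C57BL6-BALB/c WT and 0.953 for Cx30-/-). A gene needed 50 normalized counts in 1 of the compared libraries and a 2-fold ratio was the threshold, with no pseudocount. The study's selection also uses 50 reads and 2-fold, but its methods do not say in which libraries the reads were required. Levels per kb use the deposited transcript lengths, some of which differ from GENCODE M21. Intervals are 95% Clopper-Pearson intervals of the 2 raw counts (scipy 1.17.1). The test across all genes used edgeR 4.0.16 in R 4.3.3 (filterByExpr, TMM, Benjamini-Hochberg adjustment), and DESeq2 1.42.0 as an alternative, after a test on simulated data. Every member was a named gene, except 1 chain that is counted in the totals and whose values are not reported here. From the partner lists, the genes 2-fold from a WT library and the 2 with the highest level per kb were named. The members and lists were chosen with earlier results of these data known. Alternatives were other scalings, rows, minimums and folds. The row with the largest count among coding transcripts was an alternative added after seeing the data.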

Additional observations from a re-analysis of the deposited data

How the results depend on the processing

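With 1 library per group, intervals cover read sampling only, and no library could be left out. Across other scalings, a pseudocount of 1 and other choices of transcript row, the 2-fold counts of chains stayed at 0 against C57BL6 WT and 0 against both WT libraries, and at 2 or 3 against C57BL6-BALB/c WT and between the WT libraries (3 under total count). No ratio at least 2-fold changed sign, and scaling shifted the ratios by at most 0.0613. Some ratios near 0 did change sign, such as those of Itga8 and Itgal against C57BL6 WT with TMM factors. Under total count, Itga3, Itga4 and Itga10 did so against C57BL6-BALB/c WT, and Itga4, Itgb4 and Lamc1 between the WT libraries. The counts of chains higher or lower therefore depend in part on the scaling. Other thresholds moved the counts by construction. Against C57BL6 WT the count was 1 with a minimum of 10 normalized counts (5.28% of all genes), 2 with no minimum (17.4%) and 1 at 1.5-fold (10.8%). Against both WT libraries it was likewise 1 (2.67% of all genes), 2 (9.18%) and 1 (7.52%). Against C57BL6-BALB/c WT it was 4 with no minimum (22.7%), 9 at 1.5-fold (28.9%) and 0 at 4-fold (0.571%), and between the WT libraries 4 (18.2%), 5 (15.4%) and 0 (0.379%). The edgeR count of 0 chains was also 0 with DESeq2, with no filter, with DESeq2 size factors and with summed rows. The median log2 ratio of Cx30-/- stayed between 0.11 and 0.14 for integrin and between 0.20 and 0.22 for laminin chains against C57BL6 WT, and between 0.35 and 0.41 and between 0.49 and 0.55 against C57BL6-BALB/c WT.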

Other observations

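Some genes carry an integrin name without being integrin chains. Itgbl1, a secreted protein with integrin-like repeats, reached 197 normalized counts in C57BL6 WT, 235.5 in C57BL6-BALB/c WT and 218 in Cx30-/-. Itgb1bp1, which binds the tail of the β1 chain, had 288, 253 and 287, and Itgb3bp had 127, 108 and 131. Neither WT library was 2-fold from Cx30-/- for any of these 3 genes. Itgb2l and Itgb1bp2 had fewer than 50 normalized counts in every library.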
